A study of Homo sapiens with 6 samples.

Results

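The genes described here encode 7 subunits of the BBSome (BBS1, BBS2, BBS4, BBS5, BBS7, BBS9 and TTC8), 2 chaperonin-like proteins that help to assemble it (BBS10 and BBS12) and the small GTPase ARL6, which recruits it to membranes. They make up 10 of the 58884 gene IDs in the deposited tables. The 10 genes were selected by name on the expected counts, TPM values and effective lengths of the same siMatrin3 and siCTRL libraries that are compared below. Their differences between the groups are therefore a description. Whether a gene met the threshold of the fit over all genes is recorded beside the share of all genes that did, and such a call is no independent evidence about these 10.

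The BBSome is a coat-like complex that moves membrane proteins into, along and out of the primary cilium, a sensory organelle built on a basal body. ARL6 in its GTP-bound form docks the complex on membranes, and intraflagellar transport (IFT) trains carry it along the axoneme. BBS10, BBS12 and MKKS work with the cytosolic CCT chaperonin to fold and join the BBS2, BBS7 and BBS9 core, to which the other subunits are added. Inherited loss of any of these genes causes Bardet-Biedl syndrome, with retinal degeneration, obesity, extra digits and kidney defects.

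Cells of HCT116, a long-established line from a human colorectal cancer, were transfected with pooled siRNAs directed at Matrin3 (siMatrin3) or with a negative control siRNA (siCTRL), and RNA was taken after 48 h from 3 cultures per group. Matrin3 is a nuclear RNA-binding protein that represses the inclusion of exons, and the knockdown was made to find the genes that depend on it. The study's methods describe RNA depleted of ribosomal RNA, whereas the sample labels name a stranded mRNA kit. All cultures came from 1 line, so that the spread between libraries is that of repeated cultures, and fewer cells of a kind and less RNA per cell cannot be told apart in such bulk RNA.

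The libraries summed to between 4556658 and 8400412 estimated counts. MATR3, the target of the siRNAs, was at 72.5, 67.9 and 71.4 CPM (counts scaled to a common library total) in the siMatrin3 libraries, against 363, 343 and 330.2 CPM in the siCTRL libraries. The knockdown came to -2.29 ± 0.06 on the log2 scale (SE; adjusted p = 7.58e-11, edgeR's quasi-likelihood test). Across the table, 814 genes were higher and 743 lower in siMatrin3 of 14334 tested, at an adjusted p under 0.05. Of 7 colon epithelial markers, 6 were high enough to test, and their list summed to 1798 to 1897 CPM in siMatrin3 and 1576 to 1723 CPM in siCTRL. Of the 6, EPCAM (log2 fold change 0.28, edgeR adjusted p = 0.0183) and KRT19 (0.23, adjusted p = 0.0106) were higher, which is 33.3%, against 5.68% of all genes. EPCAM did not pass without siMatrin3 replicate 2 (0.26) or 3 (0.26) or siCTRL replicate 3 (0.21). The part of these shifts in the results below was not tested. The lists of fibroblast, blood and neural markers had 1, 0 and 1 genes tested out of 6 each, and only MAP2 passed (log2 fold change -0.74, edgeR adjusted p = 0.0464), though not without siMatrin3 replicate 1 (-0.55) or 3 (-0.77) or siCTRL replicate 2 (-0.75) or 3 (-0.59). COL1A1 was the fibroblast marker tested (log2 fold change -0.01), while COL1A2, COL3A1, DCN and LUM were at 0 counts in all libraries. The fibroblast list summed to 16.9 to 21.6 CPM in siMatrin3 and 18.6 to 20.2 CPM in siCTRL. All of this came from COL1A1 and from PDGFRB, which was not high enough to test. Of 10 markers of cells with motile cilia, 2 were tested. MCIDAS averaged 5.71 CPM over the 6 libraries (log2 fold change 0.47, edgeR adjusted p = 0.266). CCDC39 averaged 3.13 CPM (log2 fold change -0.42, edgeR adjusted p = 0.432). Neither passed, and for both the groups overlapped. The defining factor FOXJ1, at 0 to 0.24 CPM, was not high enough to test.

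All 10 genes were high enough to test, yet each was a low-count gene. Their mean levels over the 6 libraries lay between 3.20 CPM for BBS12 and 22.8 CPM for BBS10. Of the 10, BBS1 alone met the threshold as lower in siMatrin3, as did 5.18% of all genes tested, and nothing is read from this call because the genes were selected on the same values. None of the 10 was higher, against 5.68% of all genes, and none was higher at an unadjusted p under 0.05 by edgeR or by DESeq2. The share of all genes at this unadjusted level was not computed. The log2 fold change was below 0 for 6 genes and above 0 for 4, with a median of -0.04 beside -0.00 over all genes tested. In CPM, every siMatrin3 library lay below every siCTRL library for 3 of the 10 (BBS1, BBS4 and BBS9), against 14.7% of all genes. The opposite order was seen for 0 of the 10, against 15.0% of all genes.

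**Figure D1:**
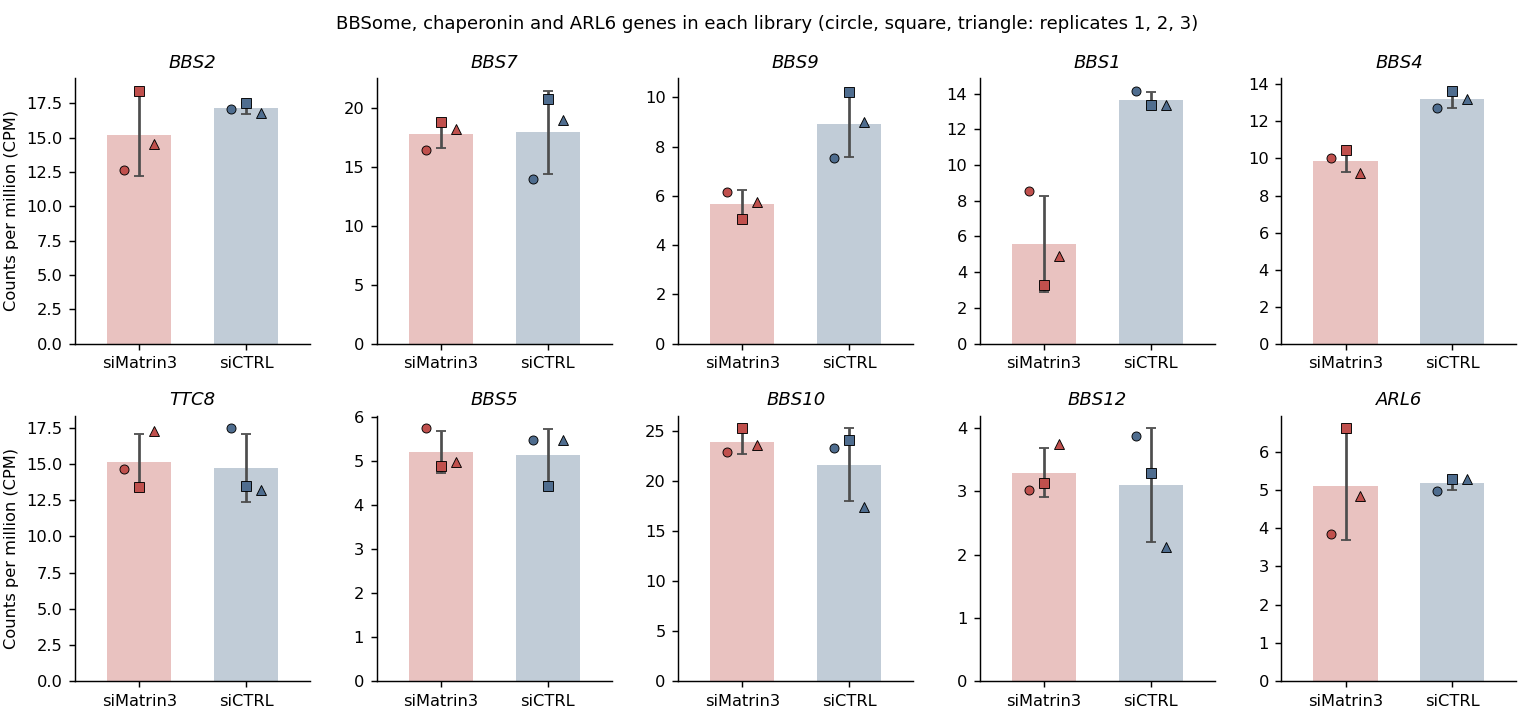
CPM of the 10 genes in siMatrin3 and siCTRL, with each y axis starting at 0 and scaled to its gene. Each point is a library, each bar the group mean and each error bar the SD (n = 3 per group); BBS9, BBS1 and BBS4 show no overlap between the groups, with siMatrin3 below siCTRL, and the other 7 overlap.

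Levels between genes were compared in TPM, a level per transcript length that RSEM scales to a fixed total in each library. In siMatrin3, TTC8 was the most abundant of the 10 at 12.2 ± 1.18 TPM and BBS12 the least at 0.98 ± 0.10 TPM (SD, n = 3). In siCTRL, BBS2 led at 12.3 ± 2.19 TPM and BBS12 was again last at 1.15 ± 0.23 TPM. The ranges of BBS2, BBS7, BBS4, TTC8 and BBS1 overlapped one another in siCTRL, so that no order among these 5 can be given there. Lower on average, BBS10 at 6.30 ± 0.98 TPM overlapped BBS9 at 5.11 ± 0.95, which overlapped ARL6 at 3.72 ± 0.88, and ARL6 overlapped BBS5 at 2.37 ± 0.87 TPM. BBS12 lay below BBS5 in every siCTRL library.

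BBS1 carries the binding site of the complex for ARL6 and had the largest difference between the groups in CPM, though not in TPM or summed with the readthrough gene described below, where BBS9 differed more. It lies on the plus strand of chromosome 11 (hg38, 66510606 to 66533613, ENSG00000174483). It was at 8.56, 3.30 and 4.90 CPM in siMatrin3, against 14.1, 13.3 and 13.4 CPM in siCTRL. The groups did not overlap, and the 3 siCTRL libraries lay close together while the siMatrin3 libraries spread widely, with replicate 2 the lowest. The mean of 5.59 ± 2.70 CPM in siMatrin3 was 41.0% of the 13.6 ± 0.45 CPM in siCTRL (SD, n = 3 each), a log2 fold change of -1.26 ± 0.25 (SE). Ordered by fold change from the lowest, BBS1 stood 71st of the 14334 genes tested.

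A second gene in the tables shares nearly all of BBS1's exons. ENSG00000256349, annotated by GENCODE as a readthrough gene (plus strand, chromosome 11, 66509079 to 66533613), has 1 transcript of 17 exons. Its first exon, 236 bases long, lies wholly within exons of DPP3, the neighbouring upstream gene for a dipeptidyl peptidase, and 93.3% of its 3547 exonic bases lie in BBS1 exons. Of the principal BBS1 transcript (3368 bases), 97.9% of the bases are also exonic in the readthrough transcript. The difference at the start is the splice into the common exon 2 (66511013 to 66511089). Exon 1 of the readthrough transcript ends at 66509314 and exon 1 of BBS1 at 66510706, and both junctions are in coding sequence. The last 30 bases of each exon 1 are shown in lower case and the first 30 bases of the shared exon 2 in capitals, from the GENCODE transcripts on the plus strand of hg38, since reads that cross these junctions, beside reads within exon 1 of BBS1, are what tells the transcripts apart at their starts:
Readthrough gene ENSG00000256349, exon 1 to exon 2: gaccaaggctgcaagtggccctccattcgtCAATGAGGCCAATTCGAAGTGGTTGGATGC
BBS1, exon 1 to exon 2: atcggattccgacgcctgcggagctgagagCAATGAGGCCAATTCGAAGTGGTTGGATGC

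The lower-case stretches differ and the capitals are identical. In windows of 50 bases, the read length that the deposited effective lengths fit, 3262 of the 3498 windows of the readthrough transcript occur in BBS1 transcripts and 187 in DPP3 transcripts. The remaining 49 windows (1.40%) occur in no other gene of the tables, so that few reads can be assigned to it alone. Of the 3319 windows of the principal BBS1 transcript, 72 are not in the readthrough transcript. Over all 25 BBS1 transcripts, 52.0% of the windows occur in no other gene.

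The readthrough gene had 23.0, 69.9 and 51.8 expected counts in siMatrin3, against 2.53, 4.48 and 0 in siCTRL. BBS1 had 62.4, 18.95 and 31.45 expected counts in the same siMatrin3 libraries, against 65.5, 113 and 76 in siCTRL. The siMatrin3 library with the lowest BBS1 count, replicate 2, held the highest readthrough count, and replicate 1 held the highest BBS1 count with the lowest readthrough count. The readthrough gene took 26.9%, 78.7% and 62.2% of the summed counts of both genes in siMatrin3, against 3.72%, 3.80% and 0% in siCTRL. The difference was 4.31 ± 0.65 on the log2 scale (SE; edgeR adjusted p = 0.00115), a size that depends on the prior count, since the siCTRL counts are near 0. The gene passed the count filter through its siMatrin3 counts alone, so nothing is read from this call. Its p-value also takes the estimated counts as given and does not cover how shared reads were divided. DESeq2 gave the readthrough gene no adjusted p.

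Summed, the pair was at 11.7, 15.5 and 13.0 CPM in siMatrin3, against 14.7, 13.9 and 13.4 CPM in siCTRL. The groups overlapped, with means of 13.4 ± 1.91 CPM in siMatrin3 and 14.0 ± 0.66 CPM in siCTRL (SD, n = 3 each). With the readthrough counts added to BBS1 before the fit, an alternative chosen after the data were seen, BBS1 came to -0.07 ± 0.15 on the log2 scale (SE), and the 95% interval was -0.36 to 0.22. It then no longer passed the threshold, and 0 of the 10 genes were lower at it by edgeR, beside 2 at an unadjusted p under 0.05 (BBS4 and BBS9). In this fit 741 of all 14333 genes were lower at the adjusted threshold. The share of all genes at the unadjusted level was not computed, so nothing is read from the 2. Whether transcripts that start in DPP3 became more abundant, or whether reads common to both genes were divided differently by the estimation, cannot be told apart in gene totals.

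**Figure D2:**
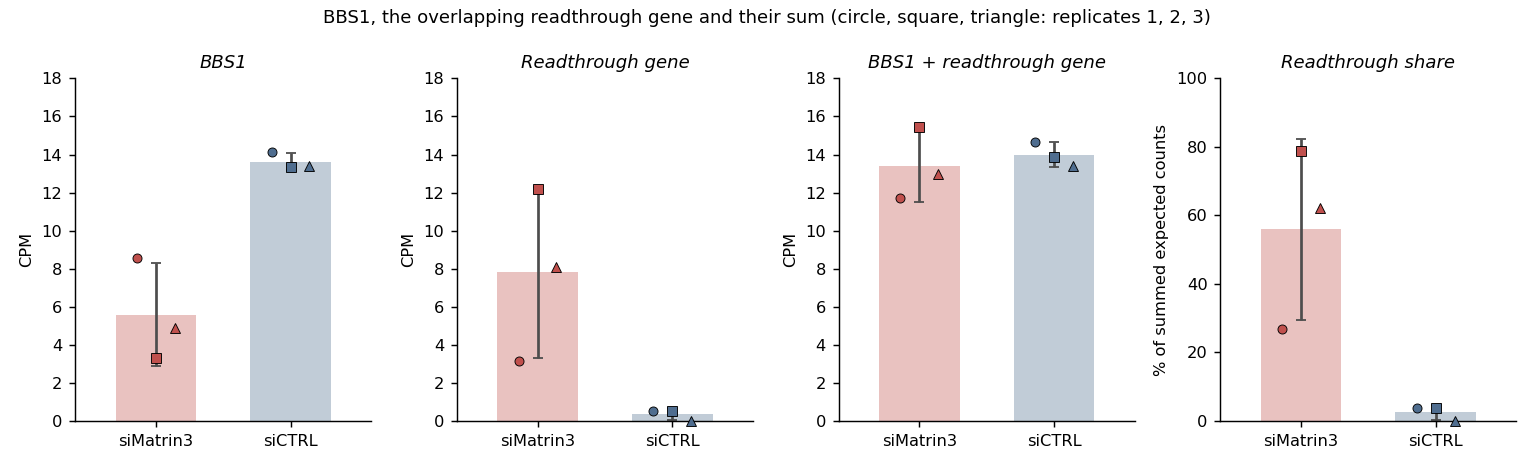
CPM of BBS1, of the overlapping readthrough gene and of their sum, and the readthrough gene's percentage of the summed expected counts, in siMatrin3 and siCTRL libraries (y axes from 0). Each point is a library, each bar the group mean and each error bar the SD; BBS1 is lower and the readthrough gene higher in all siMatrin3 libraries, and the sums overlap, at 11.7 to 15.5 CPM in siMatrin3 and 13.4 to 14.7 CPM in siCTRL.

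The neighbours of BBS1 differed by smaller amounts. DPP3, named because the readthrough transcript begins in it, was at 57.5, 59.4 and 51.5 CPM in siMatrin3, against 45.5, 50.9 and 46.5 CPM in siCTRL. These groups did not overlap, and the log2 fold change of 0.23 ± 0.08 (SE) did not pass (adjusted p = 0.0966 by edgeR). With the replicate number as a block it was 0.23 and passed (adjusted p = 0.0418). ZDHHC24, which encodes a palmitoyltransferase-family protein and overlaps BBS1 on the opposite strand, was at 9.60, 10.8 and 9.11 CPM in siMatrin3, against 9.30, 8.15 and 7.57 CPM in siCTRL (log2 fold change 0.24 ± 0.17, SE; edgeR adjusted p = 0.424).

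BBS1 also differed in effective length, the estimated mean length of its transcripts open to a read, weighted by their estimated abundance. This length was 803, 742 and 944 bases in siMatrin3, against 1384, 1368 and 1728 bases in siCTRL. The siMatrin3 mean was 55.6% of the siCTRL mean and the groups did not overlap, which means that the estimation placed BBS1's counts on shorter transcripts in siMatrin3. The 25 BBS1 transcripts in the tables range from 333 to 3585 bases. In TPM, which divides the counts by this length, BBS1 was at 10.3, 4.20 and 4.85 in siMatrin3, against 10.5, 9.83 and 8.09 in siCTRL. Here the groups overlapped, because siMatrin3 replicate 1 stood among the siCTRL libraries. With effective lengths as an offset the log2 fold change of BBS1 was -0.44, on log2(TPM + 1) it was -0.57, and in neither did it pass the threshold.

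BBS2, BBS7 and BBS9 form the core of the complex, and of these BBS9 differed most. BBS9 spans 768 kb of chromosome 7 (33109557 to 33877180, plus strand), the longest locus of the 10. It was at 6.17, 5.05 and 5.77 CPM in siMatrin3, against 7.55, 10.2 and 8.98 CPM in siCTRL. The groups did not overlap, and the siMatrin3 mean was 63.5% of that in siCTRL. The log2 fold change of -0.67 ± 0.20 (SE) lay just outside the threshold (edgeR adjusted p = 0.0510). With the replicate number as a block it was -0.66 and passed (edgeR adjusted p = 0.04895), so that 2 of the 10 genes were lower. Over all 14334 genes, this block raised the lower calls from 743 to 1056. BBS9 also passed with upper quartile scaling (-0.67, edgeR adjusted p = 0.0485), where 793 genes were lower. Without siCTRL replicate 1 it passed (-0.76), and with each other library left out it did not. Under 14 of the 17 alternatives BBS9 did not pass. Among these were DESeq2 (adjusted p = 0.151), the effective lengths as an offset (edgeR adjusted p = 0.238) and log2(TPM + 1) (limma adjusted p = 0.227).

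BBS9 had the same direction in every measure that counts transcripts. In TPM it was at 3.76, 1.91 and 2.97 in siMatrin3, against 6.20, 4.52 and 4.61 in siCTRL, again without overlap. It was the only one of the 10 with TPM lower in all siMatrin3 libraries, an order that 18.4% of all genes tested showed. Its effective length overlapped between the groups, at 1591 to 2501 bases in siMatrin3 and 1253 to 2280 bases in siCTRL. None of its windows of 50 bases occurs in another gene, and the 8 annotated genes that overlap its span held no more than 0.43 CPM each in any library.

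BBS2 and BBS7, the other core subunits, did not pass. BBS2 was at 12.6, 18.4 and 14.5 CPM in siMatrin3, against 17.0, 17.5 and 16.8 CPM in siCTRL, a log2 fold change of -0.18 ± 0.15 (SE) with overlapping groups. OGFOD1, a hydroxylase gene that overlaps BBS2 on the opposite strand, was at 60.3 ± 3.71 CPM in siMatrin3 and 62.1 ± 1.80 CPM in siCTRL (SD, n = 3 each). BBS7 was at 16.5, 18.8 and 18.2 CPM in siMatrin3, against 14.0, 20.8 and 19.0 CPM in siCTRL, a log2 fold change of -0.04 ± 0.14 (SE). In TPM, BBS7 was at 7.85, 8.09 and 6.86 in siMatrin3, against 6.76, 9.02 and 18.9 in siCTRL. The high value belongs to siCTRL replicate 3, in which the effective length of BBS7 was 1053 bases, against 2134 and 2326 bases in the other siCTRL libraries, while its CPM there was not the highest.

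BBS4 and TTC8 are both built of tetratricopeptide repeats. BBS4, which also links the complex to the centriolar satellites, was at 10.01, 10.4 and 9.20 CPM in siMatrin3, against 12.7, 13.6 and 13.2 CPM in siCTRL. The groups did not overlap and were tight, with 75.0% of the siCTRL mean left in siMatrin3, and the log2 fold change of -0.42 ± 0.14 (SE) did not pass the threshold in the main comparison or under any of the 17 alternatives. In TPM the groups overlapped, at 10.9, 5.81 and 5.01 in siMatrin3 and 11.7, 10.7 and 8.66 in siCTRL, because siMatrin3 replicate 1 had an effective length of 894 bases, against 1698 and 1713 bases in the others.

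TTC8 overlapped between the groups in counts and not in length. Its level was 14.7, 13.4 and 17.3 CPM in siMatrin3, against 17.5, 13.5 and 13.2 CPM in siCTRL, a log2 fold change of 0.06 ± 0.15 (SE). Its effective length was 1244, 1101 and 1195 bases in siMatrin3, against 1608, 1600 and 1318 bases in siCTRL, with no overlap between the groups. BBS1 and TTC8 were the 2 of 10 genes whose effective length was lower in all siMatrin3 libraries, against 5.42% of all genes tested. In TPM, TTC8 was at 11.4, 11.5 and 13.5 in siMatrin3, against 11.2, 8.52 and 10.5 in siCTRL. It was the only one of the 10 with TPM higher in all siMatrin3 libraries, against 5.48% of all genes, and the gap between the nearest libraries of the groups was small. The 13 TTC8 transcripts matched in GENCODE run from 479 to 5270 bases, and which of them gained or lost reads was not tested, since the tables give gene totals.

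**Figure D3:**
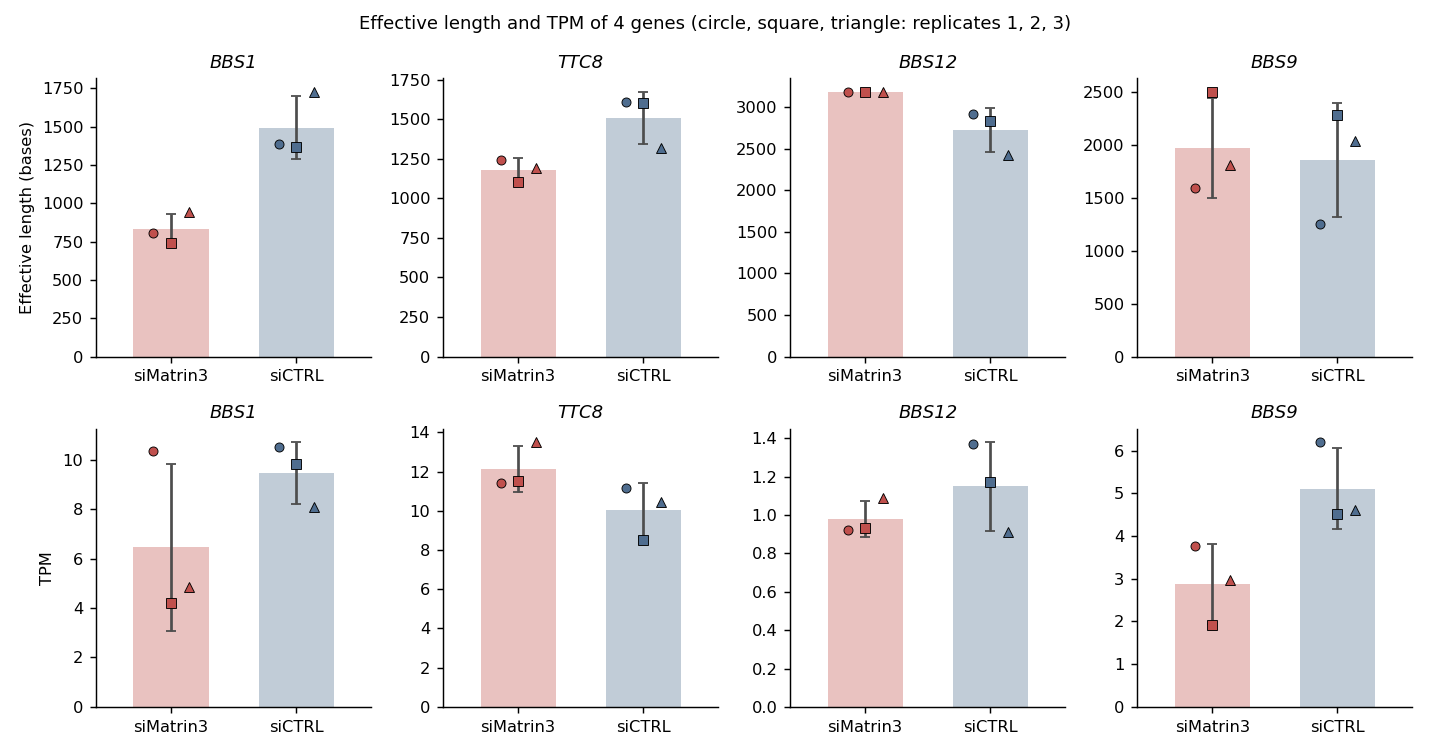
Effective length in bases (upper row) and TPM (lower row) of BBS1, TTC8, BBS12 and BBS9 in siMatrin3 and siCTRL libraries (each y axis from 0, with its own scale). Each point is a library, each bar the group mean and each error bar the SD; BBS1 and TTC8 have shorter effective lengths in all siMatrin3 libraries, BBS12 is at 3189 bases in each of them, and BBS9 is lower in TPM without overlap.

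BBS5 binds phosphoinositides through its pleckstrin homology domains. It was at 5.75, 4.89 and 4.99 CPM in siMatrin3, against 5.48, 4.44 and 5.49 CPM in siCTRL, a log2 fold change of 0.05 ± 0.24 (SE). It too has an overlapping readthrough gene on the same strand, ENSG00000251569, which joins it to KLHL41. That gene had 0, 1.40 and 0 expected counts in siMatrin3 and 0, 0 and 3.99 in siCTRL, so that, unlike at BBS1, few counts were at stake. With the pair summed, the log2 fold change of BBS5 was 0.01 ± 0.24 (SE).

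The chaperonin-like genes did not pass in either direction. BBS10, whose effective length was 3519 bases in every library, was at 22.9, 25.2 and 23.5 CPM in siMatrin3, against 23.3, 24.1 and 17.4 CPM in siCTRL. The log2 fold change was 0.13 ± 0.13 (SE), and siCTRL replicate 3 alone stood low. BBS12 was at 3.02, 3.13 and 3.74 CPM in siMatrin3, against 3.88, 3.29 and 2.11 CPM in siCTRL, a log2 fold change of 0.10 ± 0.31 (SE). At 12 to 28 expected counts per library, its 95% interval of -0.52 to 0.71 leaves room for a change of either sign. The effective length of BBS12 was 3189 bases in each siMatrin3 library, that of its 3238-base transcript, against 2916, 2835 and 2430 bases in siCTRL. It was the 1 of 10 genes with a longer effective length in all siMatrin3 libraries, against 4.02% of all genes.

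ARL6 was at 3.84, 6.62 and 4.83 CPM in siMatrin3, against 4.96, 5.29 and 5.28 CPM in siCTRL. The siMatrin3 libraries lay on both sides of the siCTRL libraries. The log2 fold change of -0.04 ± 0.26 (SE) had a 95% interval of -0.55 to 0.47. The precision is limited by depth, since ARL6 had 23 to 45 expected counts per library.

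The remaining BBSome and assembly genes, from a list written for the pathway, did not pass the threshold. BBIP1, the smallest subunit, was at 12.4, 17.1 and 10.6 CPM in siMatrin3, against 11.7, 9.32 and 11.6 CPM in siCTRL (log2 fold change 0.31 ± 0.19, SE; edgeR adjusted p = 0.347). MKKS, the chaperonin-like partner of BBS10 and BBS12, had a log2 fold change of 0.00 ± 0.09 (SE; edgeR adjusted p = 0.989). Over the 3 gene IDs that carry the MKKS symbol, the sum was 33.2 ± 0.44 CPM in siMatrin3 and 32.5 ± 2.62 CPM in siCTRL (SD, n = 3 each). LZTFL1, which restrains entry of the BBSome into the cilium, had a log2 fold change of 0.10 ± 0.20 (SE; edgeR adjusted p = 0.806).

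The sum over the 10 genes was 104, 109 and 107 CPM in siMatrin3, against 121, 126 and 115 CPM in siCTRL. These sums did not overlap, with means of 106.8 ± 2.64 CPM in siMatrin3 and 120.6 ± 5.65 CPM in siCTRL (SD, n = 3 each). With the readthrough genes of BBS1 and BBS5 included, the sums were 107, 122 and 115 CPM in siMatrin3 and 121, 127 and 116 CPM in siCTRL, and overlapped. On the TPM scale the 10 genes, without the readthrough genes, summed to 63.5, 55.5 and 54.5 in siMatrin3, against 76.2, 65.4 and 75.5 in siCTRL. In TPM, 18.4% of all genes tested were lower in every siMatrin3 library and 5.48% higher.

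In the machinery that works with the BBSome, 5 genes were lower and 2 higher of 69 tested among 72 genes in 7 lists, which is 7.25% and 2.90%, against 5.18% and 5.68% of all genes tested. The median log2 fold change was -0.02. Of 11 partners in docking and membrane traffic, 2 were lower (18.2%, against 5.18% of all genes). RAB8B, a Rab8 GTPase, was at 11.2, 12.01 and 10.4 CPM in siMatrin3, against 28.9, 27.5 and 27.5 CPM in siCTRL (log2 fold change -1.31 ± 0.11, SE; edgeR adjusted p = 2.60e-05). RAB3IP, the exchange factor that activates Rab8 and meets the BBSome at the cilium base, was at 19.99, 17.2 and 17.8 CPM in siMatrin3, against 27.4, 28.4 and 27.8 CPM in siCTRL (log2 fold change -0.60 ± 0.10, SE; edgeR adjusted p = 0.00277).

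At the transition zone, the gate at the cilium base, 2 genes were lower (11.1%, against 5.18% of all genes) and 1 higher (5.56%, against 5.68%) of 18 tested. AHI1, a Joubert syndrome gene, was at 30.04 ± 3.06 CPM in siMatrin3 and 42.3 ± 3.51 CPM in siCTRL (SD, n = 3 each; log2 fold change -0.48, edgeR adjusted p = 0.00752). CEP290, which anchors the gate and is itself a Bardet-Biedl gene, was at 14.3 ± 1.19 CPM in siMatrin3 and 20.4 ± 2.40 CPM in siCTRL (SD, n = 3 each; log2 fold change -0.51, edgeR adjusted p = 0.0253). NPHP4, a nephronophthisis gene, was at 29.7 ± 1.91 CPM in siMatrin3 and 22.4 ± 0.45 CPM in siCTRL (SD, n = 3 each; log2 fold change 0.40, edgeR adjusted p = 0.0171). CEP290 was the only one of 12 other Bardet-Biedl genes to pass (8.33% lower, against 5.18% of all genes). It did not pass in DESeq2 (adjusted p = 0.0776), nor did NPHP4 (adjusted p = 0.0810). CEP290 also lost its call without siMatrin3 replicate 1 (log2 fold change -0.51) or 3 (-0.45) or siCTRL replicate 1 (-0.42) or 2 (-0.53). NPHP4 lost its own without siMatrin3 replicate 3 (0.37) or siCTRL replicate 2 (0.40) or 3 (0.42), and on log2(TPM + 1) it was at 0.01.

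Of 17 genes of the IFT-B train, 1 passed, as higher (5.88%, against 5.68% of all genes). This gene, IFT57, was at 25.1, 25.1 and 24.5 CPM in siMatrin3, against 15.3, 18.6 and 14.4 CPM in siCTRL (log2 fold change 0.61 ± 0.12, SE; edgeR adjusted p = 0.00606). None of the 7 genes in the list for IFT-A, which also takes in TULP3, passed. The lowest p values there belonged to TTC21B (log2 fold change -0.28, adjusted p = 0.0942) and TULP3, which brings receptors into the cilium (log2 fold change 0.21, adjusted p = 0.152, both by edgeR). Among Hedgehog pathway and cargo genes, 1 of 6 tested was lower (16.7%, against 5.18% of all genes). This gene, GPR161, a receptor that the BBSome removes from the cilium, was at 18.3 ± 2.24 CPM in siMatrin3 and 24.7 ± 2.96 CPM in siCTRL (SD, n = 3 each; log2 fold change -0.45, edgeR adjusted p = 0.0375, and 0.106 by DESeq2). Of the 8 CCT chaperonin subunits, CCT3 alone passed, as higher (12.5%, against 5.68% of all genes). It was at 656 ± 15.3 CPM in siMatrin3 and 576 ± 21.7 CPM in siCTRL (SD, n = 3 each; log2 fold change 0.19, edgeR adjusted p = 0.0291). GPR161 did not pass without siMatrin3 replicate 1 (-0.40) or 2 (-0.40) or siCTRL replicate 2 (-0.33) or 3 (-0.47). CCT3 did not pass without any 1 siMatrin3 replicate (0.17 to 0.20) or without siCTRL replicate 1 (0.17) or 3 (0.18).

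**Figure D4:**
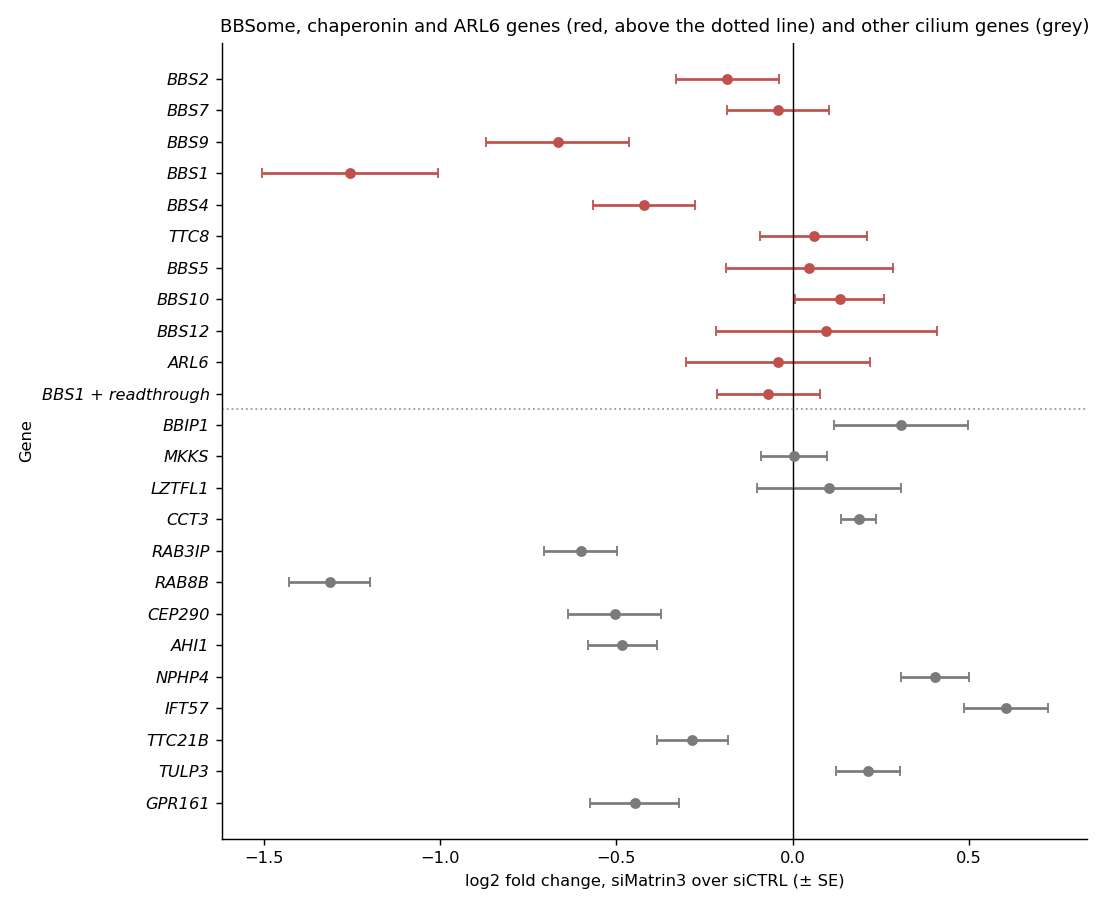
Log2 fold changes of siMatrin3 over siCTRL (x axis, edgeR) with their SE for the 10 genes and for BBS1 summed with its readthrough gene (red, above the dotted line), and for the other cilium and chaperonin genes named in the text, motile cilia markers aside (grey). BBS1 lies at -1.26 alone and at -0.07 when summed; RAB8B, at -1.31, is the lowest of the grey points and IFT57, at 0.61, the highest.

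Over the 6 libraries, the genes whose log2 CPM followed BBS1 most closely, out of 11456 genes averaging 5 CPM or more, were INCENP (Pearson r = 0.995), which encodes a chromosomal passenger protein, POMK (r = 0.992), a kinase that modifies dystroglycan, and RBM47 (r = 0.991), an RNA-binding protein. The points share the knockdown, so that both groups enter each r. Their own log2 fold changes were smaller than that of BBS1, at -0.24 for INCENP, -0.35 for POMK and -0.38 for RBM47. These genes were picked for following BBS1, whose groups do not overlap, so their calls are no independent evidence of a difference. How high the largest r of 11456 genes over 6 libraries would be without any link was not tested. By edgeR, INCENP (adjusted p = 0.0415) and POMK (adjusted p = 0.0268) passed and RBM47 (adjusted p = 0.0764) did not. By DESeq2, INCENP (adjusted p = 0.0836) and POMK (adjusted p = 0.0605) did not pass. BBS1 entered each r without the readthrough counts, and likeness to the summed pair was not tested.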

How the data were processed

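Per the labels, cutadapt, TopHat and RSEM were run by the authors on hg19. The gene annotation they used and the strand setting are not given in these sources. The deposited expected counts are RSEM's estimated reads per gene and are not normalized between libraries. The deposited TPM values were scaled by the authors within each library. The effective lengths deposited by the authors are in bases, and their FPKM column was not used.

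Gene IDs were matched to GENCODE release 44 on hg38 (99.3% of 58884), from which positions and transcript sequences were taken by ID. Expected counts were rounded, filtered by filterByExpr (minimum count 10, minimum total 15) and scaled by TMM. Groups were compared by the quasi-likelihood test of edgeR 4.0.16 in R 4.3.3 (two-sided, Benjamini-Hochberg over 14334 genes, threshold 0.05), tested on simulated data. CPM values use TMM-adjusted totals, and SE values are the log2 fold change over the square root of F, with 95% intervals from the normal distribution. Alternatives used DESeq2 1.42.0 and limma 3.58.1.

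The 10 genes and the gene lists were chosen with earlier results of these data known. The named genes were MATR3, the 10 genes, BBIP1, MKKS and LZTFL1, those past the threshold in each other cilium list (or the 2 with the lowest p), genes overlapping the 10 and the 3 most like BBS1. Not all overlapping genes are described. DPP3 and the cell type markers were named after their values were seen. Replicates with the same number deviated together in each of the 3 pairs (r = 0.107, 0.104 and 0.157 across genes), so the numbers were taken to pair the cultures. The main comparison nevertheless used the group alone, without this pairing. The pairing entered only as the replicate block, an alternative that gave 1056 genes lower and 1203 higher, against 743 and 814. Libraries of a group differed beyond counting noise in every pair (chi-square over its degrees of freedom 2.65 to 4.40).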

Additional observations from a re-analysis of the deposited data

How the results depend on the processing

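The number of the 10 genes lower in siMatrin3, 1 in the main comparison, was 2 with upper quartile scaling and 2 with the replicate block, was 1 to 2 when each library was left out, and was 0 with effective lengths as an offset, 0 by limma on log2(TPM + 1), 0 on log2(TPM + 0.1) and 0 with readthrough genes summed, an alternative chosen after seeing the data. At an unadjusted p under 0.05, 1 of the 10 was lower with the offset and on either TPM scale (BBS9), and 1 was higher with the offset (TTC8). No share of all genes at the unadjusted level was computed, so nothing is read from these counts. At the adjusted threshold none was higher under any of the 17 alternatives. The median log2 fold change of the 10, -0.04, was -0.29 with the offset, -0.35 on log2(TPM + 1) and -0.41 on log2(TPM + 0.1), where the median of all genes was itself -0.09 and -0.10. BBS1 passed under 13 of 17 alternatives, with log2 fold changes of -1.73 to -1.01 when each library was left out, and not with the offset (-0.44), on log2(TPM + 1) (-0.57), on log2(TPM + 0.1) (-0.65) or summed (-0.07).

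Of the genes in the 7 cilium lists, 5 were lower and 2 higher. With the offset these counts were 1 and 0, by DESeq2 3 and 1, and on log2(TPM + 1) and log2(TPM + 0.1) 0 and 0. When each library was left out they were 3 to 5 lower (3 without siMatrin3 replicate 1 or siCTRL replicate 2) and 1 to 2 higher (1 without siMatrin3 replicate 3 or siCTRL replicate 2 or 3). Over all genes, 743 lower and 814 higher became 105 and 99 with the offset, 463 and 548 by DESeq2, 27 and 21 on log2(TPM + 1), 18 and 13 on log2(TPM + 0.1), and 1056 and 1203 with the replicate block, with 357 to 625 lower and 350 to 631 higher when each library was left out. With upper quartile scaling, 793 genes were lower and 775 higher. INCENP turned to 0.0301 with the offset. The block changed the call of BBS9, DPP3 and RBM47, and of no other gene for which it was computed. These are the tested genes named except COL1A1, MCIDAS and CCDC39. The cause of these shifts between settings was not tested. DESeq2 gave BBS5, BBS12 and ARL6 no adjusted p. Each of the 10 held at most 205 expected counts in a library, which limits the fold changes that can be seen.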
